A study of Homo sapiens with 6 samples.

Results

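The transferrin receptor gene TFRC and genes that store, sense and move iron inside the cell were followed in BCWM1 cells, a human line established from Waldenström macroglobulinemia, a B cell lymphoma whose cells secrete IgM. The list held 10 genes: TFRC, FTH1, FTL, ACO1, IREB2, NCOA4, STEAP3, FBXL5, PCBP1 and HFE. A probe set (the group of short probes that reads 1 transcript on this array) was taken when the platform annotation gave 1 of these as its only gene symbol. Of the 10 genes, 8 had such a probe set, 30 in all, among 19775 genes named this way on the array. FTH1 and IREB2 had none and were not analysed here.

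Total RNA was measured on 6 microarrays, 3 of BCWM1 cells labelled as mutated and 3 of the parental BCWM1 cells, with no treatment, time or vector control named in the labels. The series title writes the mutation as C1013G in CXCR4, the receptor of the chemokine CXCL12. The sources used here do not say how these cells were made or whether they are 1 clone. Nothing says either that the 3 samples came from separate cultures, so the p-values given here cover the spread between samples only, and this may be technical.

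Median intensity was 30.93 to 31.83 on the mutated arrays and 28.46 to 29.13 on the parental arrays, and the number of arrays limits the precision. CXCR4 itself differed by -0.57, -0.50 and -0.15 on its 3 probe sets, mutated minus parental on the log2 scale. Of 5 B lineage markers, 4 had a probe set, and all 4 were bright. Their summed intensity was 19310 to 19892 in mutated and 18317 to 19177 in parental samples. CD79A (0.23) and CD79B (0.63) were past the test's threshold as higher in mutated cells, as were 30.1% of all tested genes. MS4A1 (-0.03) and PAX5 (0.07) were not past it. T cell markers summed to 27.4 to 31.6 in mutated and 30.4 to 42.6 in parental samples. Myeloid markers summed to 33.9 to 34.5 in mutated and 32.1 to 35.2 in parental samples, and the erythroid markers HBB and ALAS2 to 48.5 to 84.6 in mutated and 59.7 to 70.8 in parental samples. Epithelial markers summed to 68.8 to 80.9 in mutated and 85.1 to 104.7 in parental samples. Of 3 fibroblast markers 1 was bright, COL1A1, at 442 ± 42.9 in mutated and 710.3 ± 44.1 in parental cells (SD, n = 3), while COL1A2 and COL3A1 were under the limit for testing. COL1A1 was past the threshold as lower in mutated cells (-0.67), as were 18.9% of all tested genes. The part of these markers in the results was not tested.

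Cells take up iron bound to transferrin, which the transferrin receptor carries into endosomes. There the iron is reduced, by STEAP3 among others, and leaves for the cytosol, where PCBP1 hands it to ferritin, the storage shell made of FTH1 and FTL chains. NCOA4 brings ferritin to the lysosome when the stored iron is needed. The iron regulatory proteins encoded by ACO1 and IREB2 bind hairpins called iron-responsive elements in mRNAs when iron is scarce, which stabilises the TFRC mRNA and blocks translation of the ferritin mRNAs. FBXL5 is the iron-sensing part of a ubiquitin ligase that removes the IREB2 protein. HFE, an MHC class I-like protein, binds the transferrin receptor and is mutated in hereditary haemochromatosis.

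The promoters of TFRC and FBXL5 are shown because their mRNAs differed in opposite directions on the probe sets described next, and the start of the FTL transcript because it holds the iron-responsive element. All come from RefSeq on build GRCh38.p14. The promoters run from 250 bases before to 50 after the transcript start, that of TFRC at chr3:196082041-196082340 on the minus strand and that of FBXL5 at chr4:15655308-15655607 on the minus strand. Capitals mark the TATA box TATAAA, the hypoxia core ACGTG, the E-box CACGTG and the GC box GGGCGG on either strand. The stretch of FTL lies at chr19:48965335-48965358 on the plus strand, bases 27 to 50 of the transcript in its 5′ untranslated region, and capitals mark the hairpin loop at bases 39 to 44.
TFRC: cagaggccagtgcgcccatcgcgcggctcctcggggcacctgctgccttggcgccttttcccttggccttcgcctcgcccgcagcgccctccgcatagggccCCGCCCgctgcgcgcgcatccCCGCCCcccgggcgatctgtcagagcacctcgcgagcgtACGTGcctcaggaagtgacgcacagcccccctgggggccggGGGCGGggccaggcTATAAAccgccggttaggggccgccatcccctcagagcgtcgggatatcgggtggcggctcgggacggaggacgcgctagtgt
FBXL5: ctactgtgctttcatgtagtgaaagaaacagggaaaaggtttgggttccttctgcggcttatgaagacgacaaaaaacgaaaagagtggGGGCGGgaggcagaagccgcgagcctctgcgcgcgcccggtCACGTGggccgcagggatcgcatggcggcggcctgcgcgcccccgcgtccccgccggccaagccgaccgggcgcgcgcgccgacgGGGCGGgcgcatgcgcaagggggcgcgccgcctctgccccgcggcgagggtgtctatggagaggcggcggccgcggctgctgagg
FTL: ctcttgcttcaaCAGTGTttggac

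TATAAA, the TATA box, stood at -33 to -28 of TFRC and in no other of the 9 members with a promoter in the table, against 12.0% of all 27305 promoters. ACGTG, the core of the hypoxia response element, was in 4 of the 9 (TFRC, FTL, FBXL5 and HFE), against 21.6% of all promoters. CACGTG, the E-box bound by MYC and its partners, contains ACGTG on both strands. It was found in FBXL5 only of the 9, at -120 to -115, against 7.43% of all promoters. GGGCGG, the GC box, was in all 9, against 44.6%. CAGTGN, the loop of an iron-responsive element, was searched on the sense strand in the first 50 transcribed bases. It was found in FTL only of the 9, and in 6.32% of all. The rest of each transcript was not searched, and FTH1 was the member without a promoter here. The search therefore does not show which other members have the element. These matches are letters in a window and not tested sites.

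TFRC mRNA was lower in the mutated cells on both of its bright probe sets. On 208691_at, the brightest, the intensities were 4526, 4603 and 4456 in mutated samples, against 7881, 7887 and 7913 in parental samples. The 3 mutated values lay close together and far below the 3 parental ones, at a mean of 57.4% of the parental mean and a difference of -0.80 ± 0.014 (SE, n = 3 each). This and every difference given here is the mean log2(intensity + 16) of mutated minus that of parental samples, and the added 16 understates the difference of dim genes. On 207332_s_at the intensities were 2212, 2103 and 2074 in mutated samples, against 4027, 4488 and 4102 in parental samples. Here too no value of one group reached the other, and the difference was -0.98 ± 0.056 (SE, n = 3 each).

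The 3 other TFRC probe sets were dim and did not separate the groups. On 240686_x_at the intensities were 66.2, 54.3 and 88.0 in mutated samples and 56.6, 59.1 and 78.0 in parental samples, a difference of 0.08 ± 0.20 (SE, n = 3 each). On 237215_s_at they were 36.9, 34.0 and 31.2 in mutated samples and 37.5, 34.8 and 32.4 in parental samples, a difference of -0.02 ± 0.063 (SE, n = 3 each). On 237214_at they were 10.4, 19.5 and 8.94 in mutated samples and 16.3, 12.6 and 18.1 in parental samples, under the mean intensity of about 18.0 below which a probe set was not tested. The groups overlapped on all 3. Which part of the transcript each probe set reads was not analysed here. The mean over the 4 tested TFRC probe sets was -0.43, so the size of the difference depends on how the probe sets are combined.

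**Figure D1:**
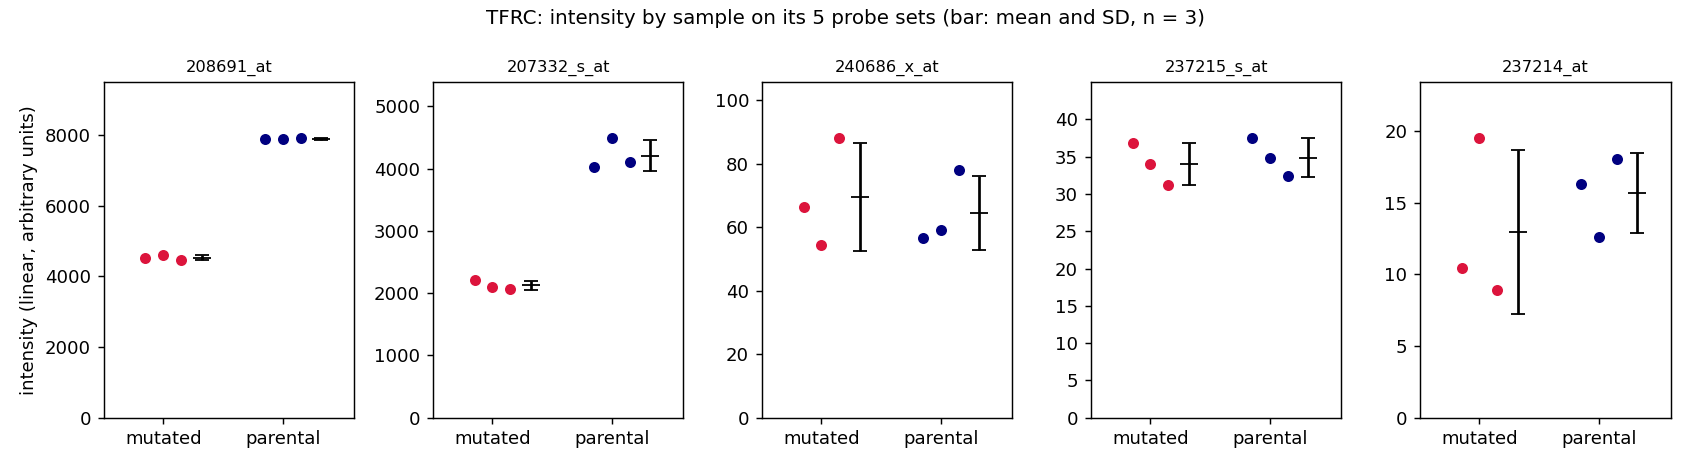
Intensity (linear, arbitrary units, each axis from 0) of the 5 TFRC probe sets in the 3 mutated (red, left) and 3 parental (dark, right) samples, with mean and SD beside each group (n = 3). The groups are far apart on 208691_at and 207332_s_at, at 4456 to 4603 against 7881 to 7913 and 2074 to 2212 against 4027 to 4488, and overlap on the 3 dim probe sets.

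The members were selected on a rule that uses these same mutated and parental values, with results on them already known, so the calls on them are a description, and nothing is read from how many there were. In limma's moderated test over 32768 probe sets (Benjamini-Hochberg adjusted p under 0.05), 30.9% of all tested probe sets were called higher and 16.6% lower in mutated cells. Of the 30 member probe sets 25 were bright enough to be tested, and 5 were called higher, 4 lower and 16 neither. Each of the 8 genes had a tested probe set. With the brightest tested one for each gene, 1 gene was called higher (FBXL5) and 2 lower (TFRC and HFE), where 30.1% of all 13644 tested genes were called higher and 18.9% lower. The median difference was -0.04 over the 8 genes and 0.04 over all tested genes. A fall at least as large as that of the brightest TFRC probe set was seen in 2.51% of tested genes.

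**Figure D2:**
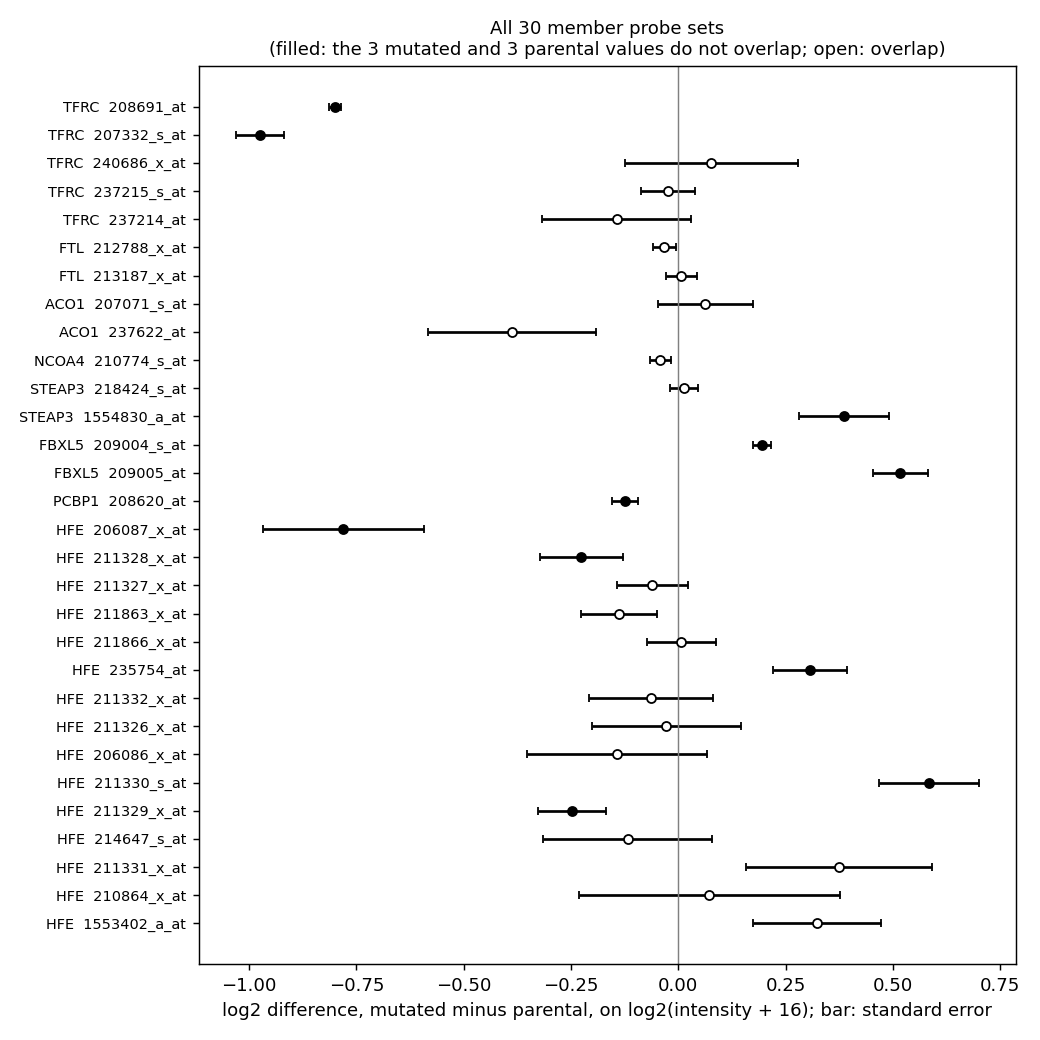
Difference of mean log2(intensity + 16), mutated minus parental, for all 30 member probe sets, with its standard error (n = 3 each). Filled points are probe sets whose 3 mutated and 3 parental values do not overlap. Over all probe sets on the array, 25.5% were wholly higher and 15.6% wholly lower in mutated samples. The 2 bright TFRC probe sets lie at -0.80 and -0.98, both FBXL5 probe sets lie above 0, and the 15 HFE probe sets spread from -0.78 to 0.58.

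FTL, the light chain of ferritin, had intensities of 9166, 9119 and 8975 in mutated and 9277, 9594 and 9023 in parental samples on 212788_x_at, a difference of -0.03 ± 0.027 (SE, n = 3 each). Its other probe set, 213187_x_at, had 7544, 7276 and 7311 in mutated and 7398, 7592 and 7037 in parental samples, a difference of 0.01 ± 0.036. The groups overlapped on both. The suffix _x_at marks probes that can bind other transcripts, and FTL has processed pseudogenes, so these values may not be of FTL alone. NCOA4, the ferritin receptor of autophagy, had 2745, 2764 and 2659.6 in mutated and 2776, 2872 and 2760.4 in parental samples, a difference of -0.04 ± 0.025 (SE, n = 3 each), and the groups overlapped in a narrow range. With each array centred on its median FTL gave -0.11 on its brightest probe set and NCOA4 -0.12.

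PCBP1, an RNA-binding protein that also carries iron to ferritin, had intensities of 4673, 4576 and 4622 in mutated samples, against 5074, 5202 and 4854 in parental samples. Every mutated value lay below every parental one, but the difference was small, -0.12 ± 0.030 (SE, n = 3 each), and it was not called. It was called lower with median centring, where the difference was -0.20, with the dimmest 60% of probe sets left out, with a pseudocount of 64 and with limma's trend and robust options, and not under the other alternative fits. Of all tested genes, 24.8% had mutated values wholly below the parental ones. Wholly higher mutated values, as on the brighter FBXL5 probe set, were seen in 36.3%. PCBP1 has 1 named probe set, so no other checks it.

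STEAP3, which reduces iron in the endosome, gave different pictures on its 2 probe sets. On the brighter, 218424_s_at, the intensities were 485, 474 and 466 in mutated and 460.3, 489.9 and 463 in parental samples, which overlapped, with a difference of 0.01 ± 0.032 (SE, n = 3 each). On the dimmer, 1554830_a_at, they were 64.3, 58.3 and 47.9 in mutated and 36.5, 41.3 and 40.8 in parental samples, without overlap and with a difference of 0.39 ± 0.10 (SE, n = 3 each). The first of these was -0.04 with quantile normalization and -0.07 with median centring, and the second 0.25 and 0.31.

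Of the genes that sense iron, FBXL5 was higher in mutated cells on both of its probe sets. On 209004_s_at the intensities were 1600.2, 1609 and 1627 in mutated samples, against 1368, 1433 and 1419 in parental samples, a difference of 0.19 ± 0.021 (SE, n = 3 each). On 209005_at they were 195, 195 and 176 in mutated samples, against 119, 135 and 127 in parental samples, a larger difference of 0.52 ± 0.065 (SE, n = 3 each). The groups did not overlap on either. With each array centred on its median, the difference on 209004_s_at was 0.12 and was not called.

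ACO1, the cytosolic aconitase that becomes an iron regulatory protein when it lacks its iron-sulphur cluster, was dim. On 207071_s_at it had 132, 123 and 102 in mutated and 109, 108 and 121 in parental samples, which overlapped, with a difference of 0.06 ± 0.11 (SE, n = 3 each). Its other probe set, 237622_at, was too dim for the test, at 8.94, 8.72 and 17.5 in mutated and 14.0, 24.4 and 22.2 in parental samples.

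**Figure D3:**
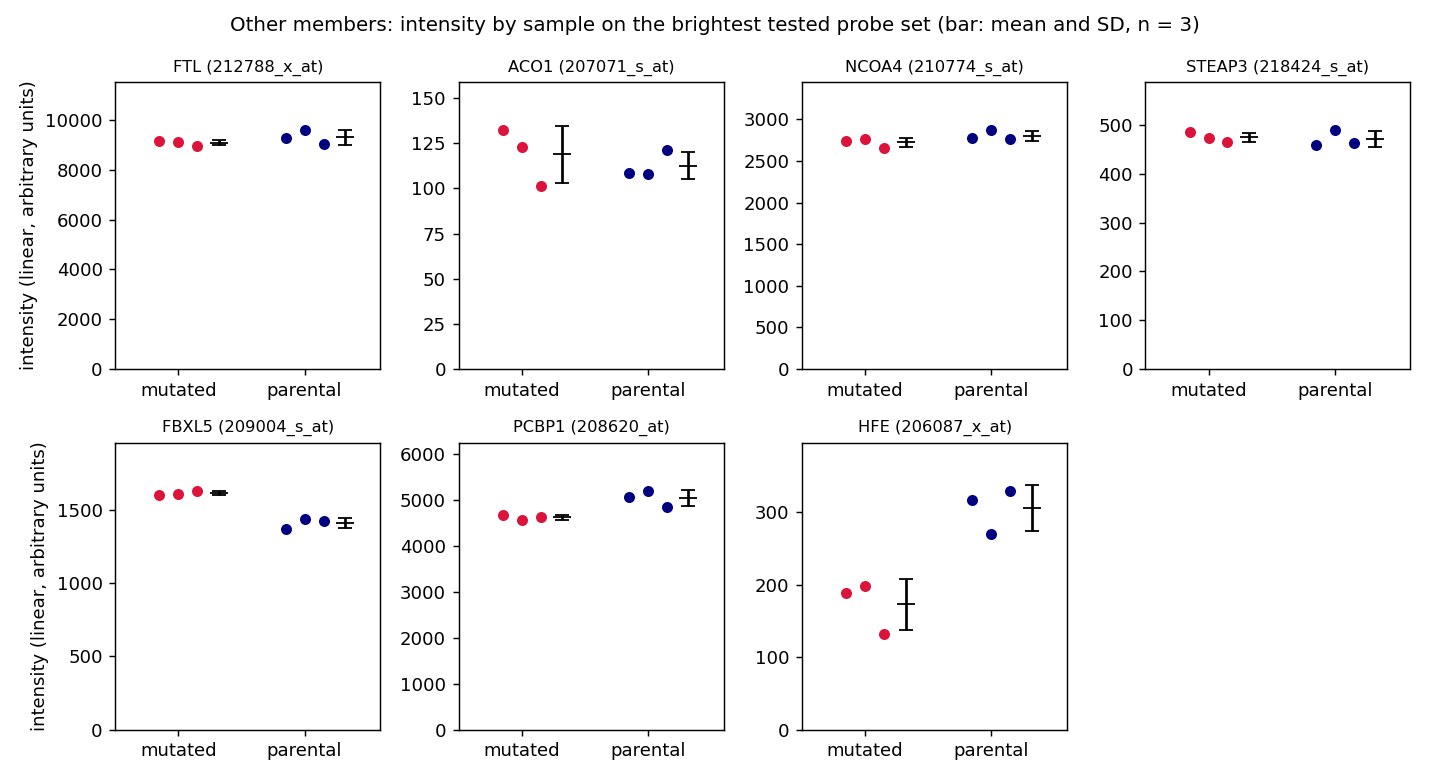
Intensity (linear, arbitrary units, each axis from 0) of the brightest tested probe set of FTL, ACO1, NCOA4, STEAP3, FBXL5, PCBP1 and HFE in the 3 mutated (red, left) and 3 parental (dark, right) samples, with mean and SD beside each group (n = 3). FBXL5 is higher and PCBP1 and HFE are lower in every mutated sample than in any parental one, and the groups overlap for the other genes.

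HFE, the partner of the transferrin receptor, has 15 probe sets that did not give 1 direction. The brightest, 206087_x_at, had 189, 198 and 132 in mutated samples, against 317, 269.7 and 329.8 in parental samples, without overlap and with a difference of -0.78 ± 0.19 (SE, n = 3 each). In contrast, 211330_s_at had 41.1, 36.7 and 33.6 in mutated samples, against 18.1, 24.4 and 16.1 in parental samples, a difference of 0.58 ± 0.12, and 235754_at one of 0.31 ± 0.086 (SE, n = 3 each). These point the other way, and 235754_at is the only tested HFE probe set with the plain suffix _at.

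Among dimmer HFE probe sets, 2 were lower without overlap, 211328_x_at (-0.23 ± 0.096) and 211329_x_at (-0.25 ± 0.079, SE, n = 3 each), of which 211329_x_at was called. The other 10 overlapped between the groups, and of these 7 were tested and 3 were too dim. In all, 3 of the 15 were wholly lower and 2 wholly higher in mutated samples. Over all 54613 probe sets, 15.6% were wholly lower and 25.5% wholly higher. Of the 15, 6 had a positive and 9 a negative difference. Intensities ran from 1.90 to 329.8, and 11 of the 15 have the suffix _x_at. The HFE probe sets therefore give no single level change.

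Closeness to TFRC was measured on its brightest probe set, 208691_at, as the root mean square difference of log2 values over the 6 samples. Each gene was centred on its own mean, and the other bright TFRC probe set, 207332_s_at, was not used. Outside the members, 5 genes had values most like those of 208691_at. They were ARHGEF3 (0.020), CD80 (0.021), a costimulatory ligand, CPEB4 (0.025), an RNA-binding protein, IKZF1 (0.026), the lymphoid transcription factor Ikaros, and DDX60 (0.029), an interferon-induced helicase. Their differences ran from -0.84 (DDX60) to -0.76 (CPEB4), and mutated means were 55.6% to 58.9% of the parental means. Of these 5 genes, 1 was among the 5 nearest with quantile normalization, 3 with a pseudocount of 64, and 2 to 4 when 1 sample was left out. The fewest, 2, came without mutated replicate 2 and without parental replicate 1, so the names are loosely fixed.

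Other genes of iron handling were taken from 9 lists of 95 genes in all, none of them a member. The lists were chosen with earlier results of these data known. Their counts and p-values are therefore a description and no independent test of the lists. Of these, 82 were tested, 4 were too dim and 9 had no probe set with that symbol alone. In mutated cells 29 rose, 14 fell and 39 did not pass the test, which is 35.4% and 17.1%, beside 30.1% and 18.9% of all tested genes. The median difference of the 82 was 0.05, against 0.04 over all tested genes. The split depends on the scaling: 27 rose and 19 fell with quantile normalization, and 22 rose and 19 fell with each array centred on its median. Rises were 67.4% of the calls in these lists in the main fit, 58.7% with quantile normalization and 53.7% with median centring. Over all genes they were 61.5%, 49.4% and 46.1%. Of all tested genes, 24.9% rose and 25.6% fell with quantile normalization, and 22.4% rose and 26.1% fell with median centring. The counts of each list below are to be read beside these shares and those of the main fit.

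**Figure D4:**
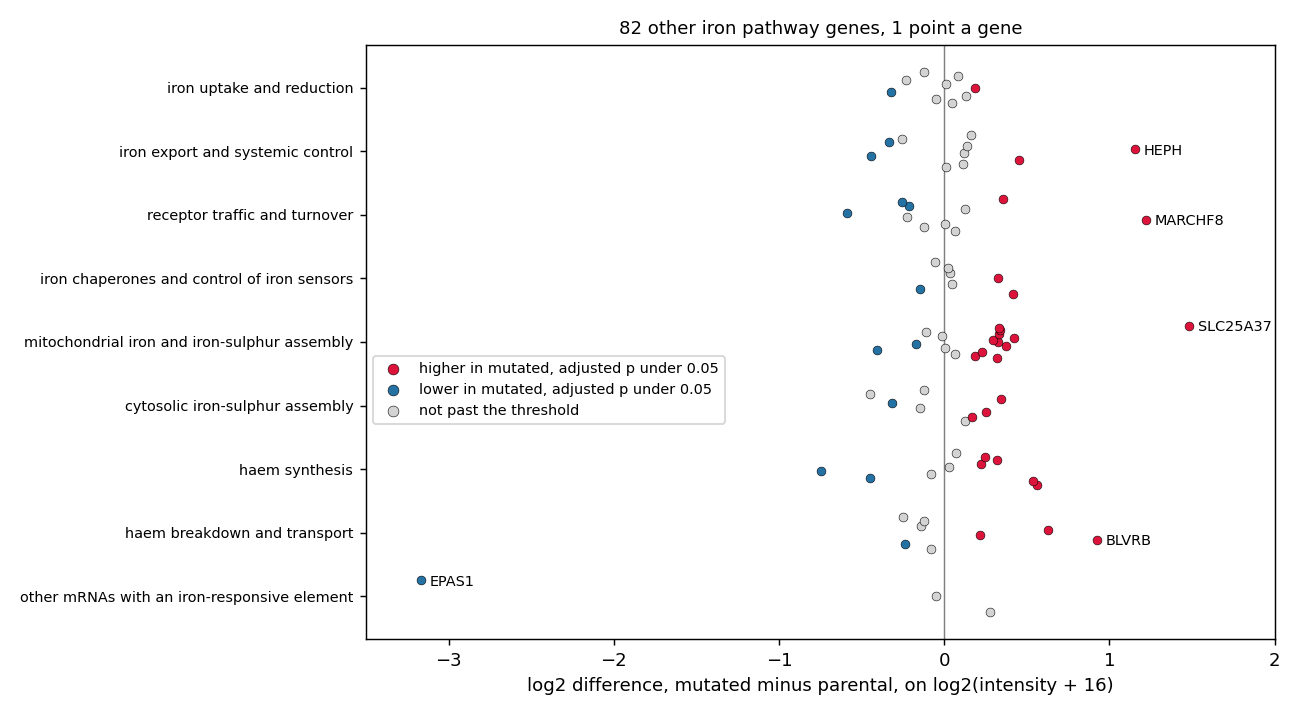
Difference of mean log2(intensity + 16), mutated minus parental, for the 82 tested iron pathway genes outside the members, 1 point a gene and 1 row a list. Red points rose and blue points fell in mutated cells (limma, adjusted p under 0.05), and grey points did not pass. The points farthest from 0 are EPAS1 at -3.17 and SLC25A37 at 1.48. Of 17 genes of mitochondrial iron and iron-sulphur assembly 11 are red (64.7%), beside 30.1% of all tested genes called higher. This is the largest such share among the lists, which were chosen with earlier results of these data known. Whether it differs from all genes was not tested.

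Genes of iron uptake and reduction mostly did not pass: of 9 tested, 1 rose and 1 fell. Among those that did not pass, TF, TFR2, STEAP2 and LRP1 were dim, with group means from 16.1 to 33.8. These lie near the limit for testing of about 18.0, where a difference is understated. STEAP1 was bright, at 1430 in mutated and 1419 in parental cells. SLC39A14, a transporter of iron not bound to transferrin, fell to 768 ± 9.89 in mutated cells, against 964 ± 28.2 in parental cells (SD, n = 3), a difference of -0.32 (limma, adjusted p = 0.0018). Its relative SLC39A8 rose by 0.19 (limma, adjusted p = 0.015). That call was lost without parental replicate 1 (limma, adjusted p = 0.053) and with median centring (0.12), and other SLC39A8 probe sets ran from -0.27 to 0.39. SLC11A2, which moves iron out of the endosome, gave 392 ± 17.8 in mutated and 356 ± 12.9 in parental cells (SD, n = 3) and did not pass (limma, adjusted p = 0.097). Its 4 other tested probe sets ran from -0.41 to 0.22.

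Of 10 genes of iron export and its systemic control, 2 rose and 2 fell. Among those that did not pass, HJV, BMP6 and TMPRSS6 were dim, with group means from 18.9 to 34.4. HEPH, the ferroxidase hephaestin, rose to 293 ± 6.11 in mutated cells, against 123 ± 5.81 in parental cells (SD, n = 3), a difference of 1.15 (limma, adjusted p = 1.2e-05). CP, the ferroxidase ceruloplasmin, rose at a dim level, with 34.2 ± 3.11 in mutated and 20.8 ± 4.16 in parental cells (SD, n = 3; limma, adjusted p = 0.0074). ERFE (-0.45), an erythroid hormone gene, and NEO1 (-0.33), a co-receptor of hemojuvelin, fell at dim levels (limma, adjusted p = 0.0081 and 0.048). The NEO1 call was lost when any sample but parental replicate 2 was left out (limma, adjusted p from 0.066 to 0.13). SLC40A1, the iron exporter ferroportin, gave 35.8 ± 17.9 in mutated and 43.8 ± 8.26 in parental cells (SD, n = 3) and did not pass (limma, adjusted p = 0.41).

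Among 10 genes of receptor traffic and turnover, 2 rose and 3 fell. With quantile normalization 4 fell, and with median centring 5 fell. MARCHF8, a ubiquitin ligase that sends the transferrin receptor to the lysosome, rose to 382 ± 18.0 in mutated cells, against 155 ± 4.95 in parental cells (SD, n = 3), a difference of 1.22 (limma, adjusted p = 1.2e-05). Its other tested probe set gave 0.01 and did not pass (limma, adjusted p = 0.93). SNX3, a sorting nexin that recycles the receptor, rose by 0.35 (limma, adjusted p = 0.0014), with 0.41 to 0.45 on its other probe sets. RC3H2 (-0.26) and RC3H1 (-0.21), RNA-binding proteins that act on mRNA decay, and MON1A (-0.59) fell (limma, adjusted p = 0.014, 0.024 and 0.042). The mean over all probe sets of the first pair was 0.08 (RC3H2) and 0.02 (RC3H1). Calls were lost for RC3H1 without mutated replicate 1 or 2 or parental replicate 2 or 3 (limma, adjusted p from 0.053 to 0.077). The MON1A call was lost without any sample but parental replicate 2 (from 0.052 to 0.12).

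Of 7 genes of iron chaperones and control of the sensors, 2 rose and 1 fell. HERC2, a ubiquitin ligase that acts on NCOA4, rose by 0.33 (limma, adjusted p = 0.0030). BOLA2, a partner of the chaperone GLRX3, rose by 0.42 (limma, adjusted p = 0.0068). Its other probe set was called lower in the same fit, at -0.40 (limma, adjusted p = 0.020), so its probe sets were called in opposite directions. The mean over both was 0.0074 and did not pass (limma, adjusted p = 0.92). CUL1, the scaffold of the ligase that holds FBXL5, fell by 0.15 (limma, adjusted p = 0.0497), a call lost without any sample but parental replicate 3 (from 0.080 to 0.13), and its other probe set gave 0.21. PCBP2, a relative of PCBP1, gave 5908 ± 83.1 in mutated and 5770.5 ± 299.9 in parental cells (SD, n = 3; limma, adjusted p = 0.64). Its 5 other tested probe sets ran from -0.54 to 0.28.

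Genes of mitochondrial iron and iron-sulphur assembly rose in 11 of 17, fell in 2 and did not pass in 4. The median difference was 0.29. In this list 64.7% rose and 11.8% fell, beside 30.1% and 18.9% of all tested genes. With quantile normalization 10 rose and 3 fell (58.8% and 17.6%, beside 24.9% and 25.6% of all tested genes). With median centring 9 rose and 3 fell (52.9% and 17.6%, beside 22.4% and 26.1%). Whether the list differs from all genes was not tested. SLC25A37, the mitochondrial iron importer mitoferrin 1, rose to 1477 ± 86.4 in mutated cells, against 520.2 ± 44.7 in parental cells (SD, n = 3), a difference of 1.48 (limma, adjusted p = 2.3e-05). Its 8 other probe sets ran from -0.19 to 2.09. The late-acting assembly factors ISCA2 (0.42), NFU1 (0.34) and BOLA3 (0.32) rose as well (limma, adjusted p = 4.4e-04, 0.0015 and 0.0015). FDX2, a ferredoxin of cluster assembly, fell to 152 ± 5.29 in mutated cells, against 207 ± 16.9 in parental cells (SD, n = 3; limma, adjusted p = 0.0035). HSPA9, the mitochondrial chaperone mortalin, fell by 0.17 (limma, adjusted p = 0.033), a call lost without any 1 of the 6 samples (from 0.056 to 0.093). Its 2 other probe sets gave -0.31 and -0.24. ISCU, the scaffold on which clusters are built, gave 5721 ± 101 in mutated and 5771 ± 56.1 in parental cells (SD, n = 3; limma, adjusted p = 0.84).

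In the cytosolic iron-sulphur assembly list 3 of 8 rose and 1 fell. CIAO2B (0.25), MMS19 (0.34) and CIAO2A (0.17), which carry clusters to target proteins, rose (limma, adjusted p = 0.0049, 0.0090 and 0.029), and CIAPIN1, an electron donor of the pathway, fell by 0.32 (0.0028). The other CIAPIN1 probe set gave -0.11. The CIAO2A call was lost without any sample but mutated replicate 2 (limma, adjusted p from 0.058 to 0.084) and with median centring (0.20). With quantile normalization 3 rose and 3 fell, and with median centring 2 rose and 2 fell.

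Haem synthesis genes rose in 5 of 10, fell in 2 and did not pass in 3. With median centring 3 rose and 2 fell. The 2 that fell were ALAS1, which catalyses the first step, to 1315 ± 27.4 in mutated cells, against 1799.6 ± 42.1 in parental cells, and CPOX, to 1202 ± 72.1 against 2026 ± 64.4 (SD, n = 3 each). Their differences were -0.45 and -0.75 (limma, adjusted p = 4.4e-04 and 1.5e-04). ALAD, the enzyme of the second step, rose to 555 ± 10.1 in mutated cells, against 378 ± 5.65 in parental cells (SD, n = 3; limma, adjusted p = 1.7e-04), with 0.54 and 0.63 on its probe sets. The transporter ABCB6 (0.56) and the mitochondrial protein TMEM14C (0.32) rose (limma, adjusted p = 1.3e-04 and 0.0025), but the other ABCB6 probe set gave 0.04. UROD (0.24) and PPOX (0.22), both enzymes of the pathway, rose on their brightest probe sets (limma, adjusted p = 0.017 and 0.018). The other UROD probe set gave -0.01, and those of PPOX -0.31 and -0.09. The UROD call was lost without mutated replicate 2 (limma, adjusted p = 0.057), and that of PPOX without mutated replicate 2 (0.059) or parental replicate 3 (0.058). With median centring neither passed (UROD 0.076 and PPOX 0.088), and with quantile normalization PPOX did not (0.38).

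Of 8 genes of haem breakdown and transport, 3 rose and 1 fell. With quantile normalization 3 rose and 2 fell, and with median centring 2 rose and 2 fell. BLVRB, a biliverdin reductase, rose to 1590.3 ± 78.1 in mutated cells, against 833 ± 58.0 in parental cells (SD, n = 3), a difference of 0.92 (limma, adjusted p = 1.1e-04). FLVCR2 (0.63) and FLVCR1 (0.22), relatives first described as haem transporters, rose (limma, adjusted p = 0.0024 and 0.0074). The FLVCR1 call was lost with median centring (limma, adjusted p = 0.058) and as a mean over probe sets (0.0501), and its other probe set gave 0.04. Other FLVCR2 probe sets ran from -0.26 to 0.09. BLVRA, the other biliverdin reductase, fell by 0.23 (limma, adjusted p = 0.026), a call lost without any sample but mutated replicate 3 (from 0.051 to 0.082). Its 4 other probe sets ran from -0.25 to 0.04. HMOX1, the inducible haem oxygenase, gave 449.5 ± 11.3 in mutated and 500.2 ± 55.9 in parental cells (SD, n = 3) and did not pass (limma, adjusted p = 0.21).

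The last list held further genes whose mRNAs are known to carry an iron-responsive element and that stand in no other list. Of its 3 tested genes 1 fell. ALAS2, SLC40A1 and SLC11A2, which also have such an element, were counted in the lists above and did not pass. EPAS1, the gene of the oxygen-regulated factor HIF-2alpha, was at 143 to 152 in mutated and 1418 to 1534 in parental samples, a difference of -3.17 (limma, adjusted p = 3.6e-07). CDC14A gave 412 ± 64.1 in mutated and 335 ± 4.72 in parental cells (SD, n = 3; limma, adjusted p = 0.084), and CDC42BPA did not pass either (0.44). The 4 other tested probe sets of CDC14A ran from -0.37 to 0.27, and the 3 of CDC42BPA from 0.005 to 0.36.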

How the data were processed

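Biotin-labelled cRNA of 3 mutated and 3 parental samples was hybridised to arrays, per the labels' protocols. The authors deposited 1 intensity for each probe set, on a linear scale. The sources used here do not give the summary method, background correction, normalization or genome build. All 54613 probe sets were read. The annotation gives 1 symbol for 41091, several for 1801 and none for 11721, and 41037 were matched by Entrez ID to RefSeq genes (GRCh38.p14).

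Values were taken as log2(intensity + 16). The dimmest 40% by mean over all samples were left out, and the remaining 32768 were fitted with limma 3.58.1 in R 4.3.3 (lmFit, eBayes, two-sided), group as the only term, with Benjamini-Hochberg adjustment and a threshold of 0.05. The procedure was tested on simulated data. A gene is its tested probe set of highest mean. Plots were made in matplotlib 3.10.9 (Python 3.11.15).

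The members and lists were chosen with earlier results of these data known. Named were all members, up to 4 called genes of each list with separate groups and the smallest adjusted p, every called gene of a list where 5 or fewer moved one way, and the 5 genes nearest to TFRC. SLC11A2, SLC40A1, PCBP2, ISCU, HMOX1, CDC14A and CDC42BPA were added after their values were seen. Alternatives were other scalings, filters, pseudocounts, variance settings and probe set choices, the replicate number as a block, and each sample left out.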

Additional observations from a re-analysis of the deposited data

How the results depend on the processing

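The 2 bright TFRC probe sets were called lower under all 14 alternative fits. The difference on the brightest ran from -0.81 to -0.79 with 1 sample left out, was -0.88 with median centring, and was -0.43 as the mean over its tested probe sets. HFE turned to 0.31 when probe sets ending in _s_at or _x_at were left out. That choice leaves FTL and NCOA4 with no tested probe set, and ACO1 as well. Without those suffixes BOLA2 gave -0.40, CUL1 0.21, UROD -0.0056, PPOX -0.31, FLVCR2 -0.26 and BLVRA 0.036. As means over probe sets RC3H2 gave 0.082, RC3H1 0.017, CUL1 0.030 and PPOX -0.057. These signs turned because other probe sets stand for the gene. Pathway genes that fell numbered 8 without the filter and 9 to 11 with 1 sample left out (9 without mutated replicate 1 or 2 or parental replicate 1), against 14, and those that rose 16 without the suffixes, where 65 were tested, and 26 to 28 with 1 sample left out, against 29. Without the filter the calls of NEO1, RC3H1, MON1A, CUL1, HSPA9, CIAO2A and BLVRA were lost (limma, adjusted p from 0.053 to 0.10). With a pseudocount of 1 those of NEO1 (0.058), MON1A (0.054) and CUL1 (0.055) were lost, and NEO1 (0.059) also with the trend and robust options. The causes were not tested. Over all probe sets, 7693 to 10668 were called higher and 4314 to 7784 lower. Member probe sets called higher numbered 2 with the dimmest 60% left out and 3 with quantile normalization or median centring, against 5. Those called lower numbered 6 with quantile normalization or median centring, against 4. Replicates share only a number: deviations of same-numbered samples correlated at 0.11, 0.027 and 0.11, though each sample correlated best with its own number. With the replicate number as a block, 28 pathway genes rose and 11 fell, 4 member probe sets were called higher and 3 lower, and 9685 probe sets were called higher and 5212 lower. The calls of CUL1 (limma, adjusted p = 0.081), HSPA9 (0.062), CIAO2A (0.066) and BLVRA (0.057) were lost with the block. Probe sets with a mean intensity under about 18.0 were not tested and have no call.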
